A study of Mus musculus with 12 samples.

Results

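The genes described here encode the core of the basement membrane, the sheet of matrix on which kidney epithelium and endothelium rest. They are the 6 collagen IV chains Col4a1 to Col4a6, the laminin chains Lama5, Lamb2 and Lamc1, and nidogen-1, Nid1. These 10 genes were chosen by name from 19938 genes measured with a single-symbol probe set. Each of the 10 had exactly 1 such probe set, so no choice between probe sets was needed.

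Gene expression was measured on 12 microarrays in whole kidneys of mice aged 3 weeks, in 4 groups of 3 arrays. PpargΔ/Δ mice are labelled as deleted for Pparg, the gene of the nuclear receptor PPARγ. They are of mixed C57BL6/SV129 strain and were set against control mice of the same mixed strain. AZIP mice, of the FVB strain, were set against FVB control mice. AZIP is known as a transgene whose product blocks the bZIP factors that fat cells need, and it is driven by a promoter active in fat cells. The labels do not say how Pparg was deleted or in which cells. RNA of 3 mice was pooled for every array, which leaves 3 pools in a group and evens out differences between single mice.

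Collagen IV chains assemble in threes, and the trimers join into networks. The alpha1-alpha2 network is found in basement membranes throughout the body, including the mesangium, vessels and most tubules. The alpha3-alpha4-alpha5 network is made by podocytes and is the main collagen of the mature glomerular basement membrane, and it is the network affected in Alport syndrome. The alpha6 chain pairs with alpha5 in Bowman's capsule and around smooth muscle. Lama5, Lamb2 and Lamc1 encode the 3 chains of the laminin of the mature glomerular basement membrane, and nidogen-1 bridges laminin and collagen IV.

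The collagen IV genes lie in head-to-head pairs that are transcribed away from each other. In the RefSeq records of build GRCm38.p6, Col4a1 (- strand) and Col4a2 (+ strand) on chromosome 8 overlap by 85 bases at their starts. Col4a4 (- strand) and Col4a3 (+ strand) on chromosome 1 overlap by 114 bases, and Col4a6 and Col4a5 on chromosome X are separated by 1274 bases. The 250 bases before the starts of Col4a1, Col4a2 and Col4a4 lie within the record of the gene itself or of its partner. The third pair is shown, because most of its start regions lies between the genes, and it is the pair whose levels varied together least, as described further on. Only bases outside every gene record are given, each 5′ to 3′ on the gene's own strand and ending at the record. Capitals mark CCAAT and GGGCGG on either strand, and the last 2 capitals of Col4a6 are the edge of a CCGCCC that runs into its record.
Col4a5, chrX:141475169-141475369, + strand: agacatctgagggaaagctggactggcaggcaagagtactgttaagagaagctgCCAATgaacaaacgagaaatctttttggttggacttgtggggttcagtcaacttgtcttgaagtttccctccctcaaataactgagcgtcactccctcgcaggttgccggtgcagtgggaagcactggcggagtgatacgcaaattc
Col4a6, chrX:141474096-141474326, - strand: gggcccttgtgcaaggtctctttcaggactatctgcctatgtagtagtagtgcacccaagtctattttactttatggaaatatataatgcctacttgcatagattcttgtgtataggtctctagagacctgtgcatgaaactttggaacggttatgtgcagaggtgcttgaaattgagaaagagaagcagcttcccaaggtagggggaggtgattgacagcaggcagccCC
Of the 10 genes 8 had a window in the RefSeq promoter table, while Col4a3 and Lamc1 had none. CCAAT (or ATTGG on the other strand) was found in 4 of the 8 windows, against 33.8% of all 32851 windows of the same length. GGGCGG (or CCGCCC) was found in 5 of the 8, against 32.7%, and TATAAA (or TTTATA) in 0 of the 8, against 12.4%. The upstream window of Col4a2 held a CCAAT starting 32 bases before its start and the Col4a1 window an ATTGG starting 145 bases before its own. The Col4a4 window held none of the 3 motifs, and that of Col4a5 held a CCAAT starting 196 and a GGGCGG motif starting 30 bases before its start. These distances run to the end of each window, which for Col4a1 and Col4a5 lies inside the gene record. The GGGCGG motif of Col4a5 therefore lies within its record and is not among the bases printed. GC content ran between 43.6% for Lamb2 and 74.4% for Col4a1. These matches describe the letters of the windows only.

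The arrays of each group were alike, with pairwise correlations across genes between 0.996 and 0.998. All values are log2 probe set values made by the authors with RMA, and the tests compare 1 probe set between arrays. Where probe sets are called bright or dim, this describes their signal and not the level of 1 gene relative to another. The proximal tubule phosphate transporter Slc34a1 lay between 13.1 and 13.2 and the thick limb protein Umod between 13.0 and 13.1 on the 12 arrays. The mean of each stood at percentile 99.9 of the genes measured. Other kidney markers stood lower, with Aqp2 at percentile 89.9, Pecam1 at 86.0, the podocyte gene Nphs1 at 67.8 and the urothelial gene Upk2 at 48.9. Pparg itself averaged 8.07 ± 0.11 in PpargΔ/Δ kidneys and 7.96 ± 0.06 in control kidneys (SD, n = 3 each), so its probe set was not lower in the PpargΔ/Δ mice. The labels do not say which part of the gene is missing, so the probe set cannot serve as a test of the deletion, and the name PpargΔ/Δ is that of the labels. Of the 10 members 9 were among the brighter probe sets, with mean values of 8.41 to 10.7, and Col4a6 was dim, with a mean of 6.56. Differences are mutant minus own control on the log2 scale with the SE of limma, and a gene is called at a Benjamini-Hochberg adjusted p under 0.05 over all 19938 genes. The labels do not say whether pools were prepared together, so p-values measure the spread between these pools only. In whole kidney, fewer cells of a type and less RNA per cell cannot be told apart.

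**Figure D1:**
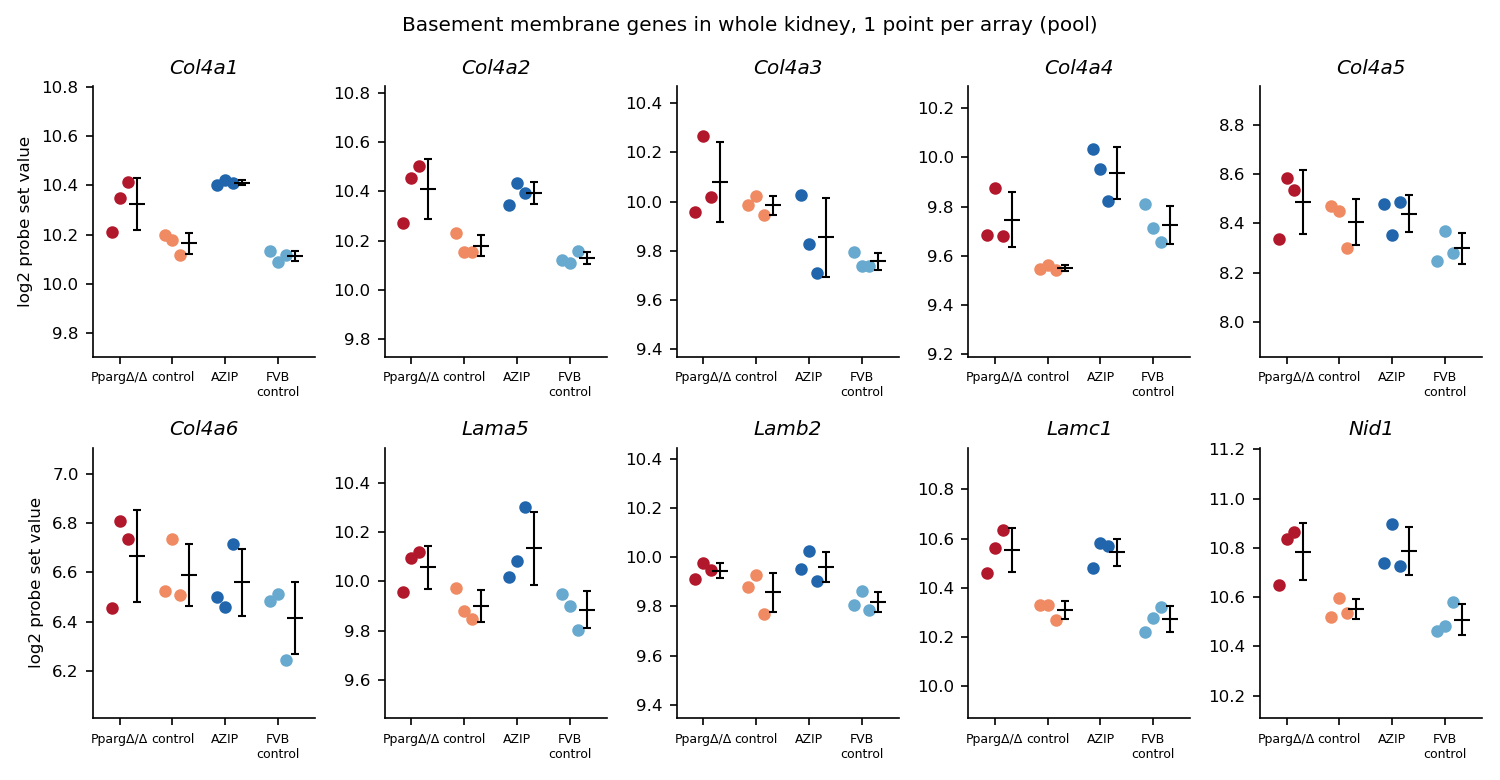
Log2 probe set value (vertical axis) of each of the 10 genes on every array, with 3 arrays in each of the PpargΔ/Δ, control, AZIP and FVB control groups; black bars give the mean ± SD and every panel spans the same range of log2 units. Col4a1 on the 3 AZIP arrays sits between 10.40 and 10.42, above the 3 FVB control arrays at 10.09 to 10.13.

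All 10 genes had a fitted difference above 0 in both mutant lines, and 3 passed the test in AZIP and 2 in PpargΔ/Δ kidneys. In AZIP kidneys Col4a1 rose 1.23-fold (95% interval 1.13 to 1.33), Lamc1 1.21-fold (1.11 to 1.31) and Col4a2 1.2-fold (1.10 to 1.31). In PpargΔ/Δ kidneys Lamc1 rose 1.18-fold (1.09 to 1.29) and Col4a2 1.17-fold (1.07 to 1.28). The chains of the alpha3-alpha4-alpha5 network did not pass in either line. Over all genes, 1.3% were called higher in AZIP and 2.67% in PpargΔ/Δ kidneys, against 3 and 2 of these 10, and 1.13% and 2.62% were called lower, against 0 of these 10 in either line by limma. Most members were brighter than the median gene, and brighter genes were called more often. With only the 9970 genes at or over percentile 50 of mean value tested, 396 were called higher in AZIP and 720 in PpargΔ/Δ kidneys. In that setting 4 members were called in each line. In the main fit Col4a2 and Lamc1 were called in both lines, as were 0.717% of all genes. The median difference of the 10 was 0.23 in AZIP kidneys, beside 0.0028 over all genes, and 0.16 in PpargΔ/Δ kidneys, beside -0.0089 over all genes. A fitted difference above 0 in both lines was seen for 31.7% of all genes.

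Among the chains of the widespread network, Col4a1, the alpha1 chain, read 10.40, 10.42 and 10.41 on the AZIP arrays, against 10.13, 10.09 and 10.12 on the FVB control arrays. The groups were far apart relative to their spread, and the AZIP pools were nearly identical. The difference was 0.30 ± 0.053 (limma adjusted p = 0.0187). In PpargΔ/Δ kidneys Col4a1 read 10.21, 10.35 and 10.42, against 10.20, 10.18 and 10.12 in control kidneys. The first PpargΔ/Δ pool lay just above the highest control pool, so the groups did not overlap, but the difference of 0.16 ± 0.053 was not called (limma adjusted p = 0.108, 95% interval 0.044 to 0.28).

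Col4a2, the alpha2 chain that joins alpha1 in the same trimer, followed a like pattern. It read 10.27, 10.46 and 10.50 on the PpargΔ/Δ arrays, against 10.23, 10.15 and 10.15 on the control arrays. Here too the first PpargΔ/Δ pool was close to the controls and the other 2 were well above them. The difference was 0.23 ± 0.060 (limma adjusted p = 0.0476). On the AZIP arrays it read 10.35, 10.43 and 10.40, against 10.12, 10.11 and 10.16 on the FVB control arrays, with every AZIP pool above every FVB control pool. That difference was 0.26 ± 0.060 (limma adjusted p = 0.0436).

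Of the alpha3-alpha4-alpha5 network, Col4a3, the alpha3 chain that carries the Goodpasture autoantigen, read 9.96, 10.27 and 10.02 on the PpargΔ/Δ arrays, against 9.99, 10.02 and 9.95 on the control arrays. Only the second PpargΔ/Δ pool stood clear of the controls, and the difference was 0.095 ± 0.087 (limma adjusted p = 0.601, 95% interval -0.096 to 0.29). In AZIP kidneys it read 10.03, 9.83 and 9.71, against 9.80, 9.74 and 9.74 in FVB control kidneys. The groups overlapped, with the lowest value of all 6 arrays on an AZIP array, and the difference was 0.098 ± 0.087 (limma adjusted p = 0.65, 95% interval -0.092 to 0.29).

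Col4a4, the alpha4 chain, differed from its partner Col4a3 in that its groups did not overlap in either line. It read 9.68, 9.87 and 9.68 on the PpargΔ/Δ arrays, against 9.55, 9.56 and 9.54 on the control arrays (0.20 ± 0.069, limma adjusted p = 0.13). On the AZIP arrays it read 10.04, 9.95 and 9.82, against 9.81, 9.71 and 9.66 on the FVB control arrays (0.21 ± 0.069, limma adjusted p = 0.137). Every mutant pool was above every control pool of its strain, yet the call was missed in both lines. Col4a5, the X-linked alpha5 chain, was at 8.49 ± 0.13 in PpargΔ/Δ and 8.41 ± 0.094 in control kidneys, and at 8.44 ± 0.076 in AZIP and 8.30 ± 0.063 in FVB control kidneys (SD, n = 3 each). These ranges overlapped in both lines (limma adjusted p = 0.603 and 0.379 for PpargΔ/Δ and AZIP). Col4a6, the dim alpha6 chain, overlapped as well, at 0.077 ± 0.11 in PpargΔ/Δ and 0.15 ± 0.11 in AZIP kidneys (limma adjusted p = 0.755 and 0.573).

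Of the laminin chains, Lamc1 passed the test in both lines, and differences between the chains were not tested. Lamc1, the gamma1 chain shared by most laminins, read 10.46, 10.56 and 10.64 on the PpargΔ/Δ arrays, against 10.33, 10.33 and 10.27 on the control arrays (0.24 ± 0.055, limma adjusted p = 0.0287). On the AZIP arrays it read 10.48, 10.58 and 10.57, against 10.22, 10.28 and 10.32 on the FVB control arrays (0.27 ± 0.055, limma adjusted p = 0.0298). Both mutants were clear of their controls on every pool.

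Lama5, the alpha5 laminin chain, read 10.02, 10.08 and 10.30 on the AZIP arrays, against 9.95, 9.90 and 9.80 on the FVB control arrays. The groups did not overlap, but the AZIP pools were spread, and the difference of 0.25 ± 0.076 was not called (limma adjusted p = 0.117). In PpargΔ/Δ kidneys its difference was 0.16 ± 0.076 with overlapping groups (limma adjusted p = 0.275). Lamb2, the beta2 chain that distinguishes the mature glomerular laminin from its precursor with beta1, was at 9.94 ± 0.031 in PpargΔ/Δ and 9.86 ± 0.079 in control kidneys (limma adjusted p = 0.395). It was at 9.96 ± 0.061 in AZIP and 9.82 ± 0.041 in FVB control kidneys (SD, n = 3 each, limma adjusted p = 0.192). The PpargΔ/Δ and control arrays overlapped, and the AZIP arrays all lay above the FVB control arrays.

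Nid1, the linker between laminin and collagen IV, lay just outside the threshold in both lines. It read 10.74, 10.90 and 10.73 on the AZIP arrays, against 10.46, 10.48 and 10.58 on the FVB control arrays, a difference of 0.28 ± 0.068 (limma adjusted p = 0.0548). On the PpargΔ/Δ arrays it read 10.65, 10.84 and 10.86, against 10.52, 10.60 and 10.54 on the control arrays, a difference of 0.23 ± 0.068 (limma adjusted p = 0.0699). No mutant pool overlapped a control pool of its strain. Its fold was 1.21 (95% interval 1.10 to 1.34) in AZIP and 1.18 (1.06 to 1.30) in PpargΔ/Δ kidneys, in the range of the called members' folds.

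**Figure D2:**
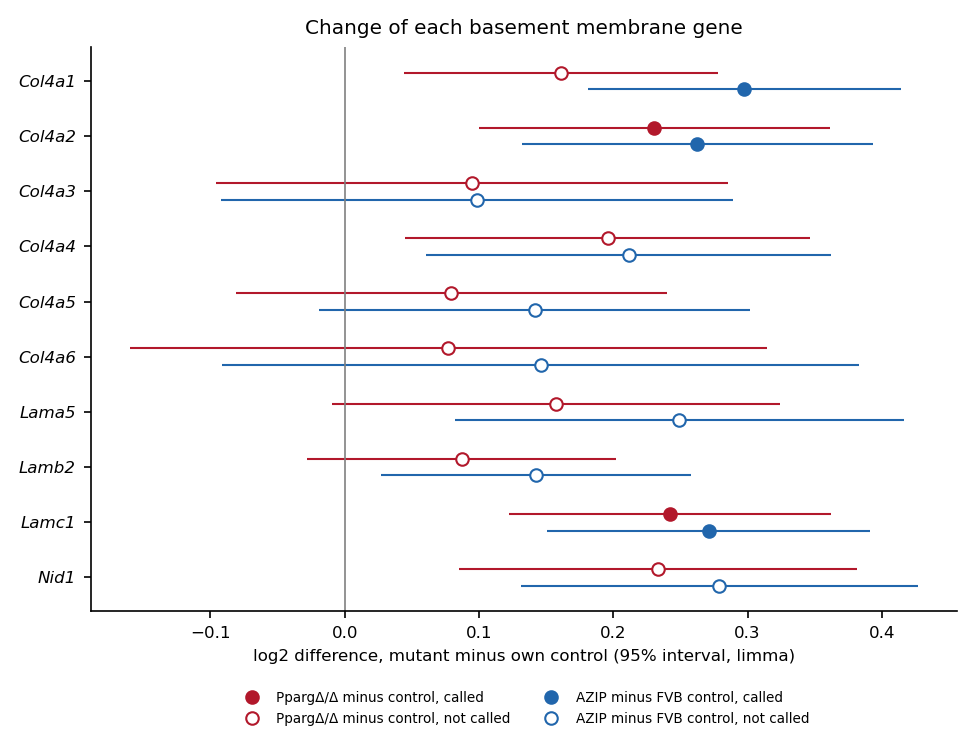
Log2 difference of each gene (horizontal axis) with its 95% interval from limma, for PpargΔ/Δ minus control and AZIP minus FVB control, n = 3 arrays per group; filled points passed an adjusted p under 0.05. All 20 points lie above 0, and the filled ones are Col4a2 and Lamc1 in both lines and Col4a1 in AZIP.

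Counted by overlap, 7 of the 10 genes had every AZIP pool above every FVB control pool and 5 had every PpargΔ/Δ pool above every control pool. Over all genes such separation upwards was seen in 11.0% and 12.9%. At an unadjusted p under 0.05 the members numbered 7 in AZIP and 5 in PpargΔ/Δ kidneys, all higher, against 8.09% and 10.2% of all genes higher at that level. The calls themselves depended on the arrays kept. The AZIP count was 0 of 10 without AZIP 2, FVB control 1 or FVB control 2, and 1, Col4a1, without AZIP 3. Calls over all genes in AZIP fell too, from 485 to 122, 62 and 100 in turn, and to 244 without AZIP 3. With 1 array left out the AZIP differences stayed between 0.29 and 0.31 for Col4a1, 0.24 and 0.29 for Col4a2, and 0.24 and 0.30 for Lamc1. Col4a1 in AZIP lost the call without any of AZIP 2, FVB control 1 and FVB control 2 (limma adjusted p up to 0.0749). Lamc1 in AZIP lost it without those arrays or AZIP 3 (up to 0.13) and Col4a2 without any of the 6 arrays of its comparison, PpargΔ/Δ 2 or any control array (up to 0.153). The PpargΔ/Δ count was 0 without PpargΔ/Δ 2 or 3 or any control array, and 1, Lamc1, without any AZIP or FVB control array. Without PpargΔ/Δ 2 or 3 or a control array, the PpargΔ/Δ calls over all genes fell from 1055 to between 330 and 627. The member count was 4 without PpargΔ/Δ 1, when Col4a1 and Nid1 were called too. Col4a2 in PpargΔ/Δ kidneys thus lost the call with 11 of the 12 arrays left out in turn (limma adjusted p 0.0543 to 0.153).

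The rule asked how the alpha1-alpha2 and alpha3-alpha4-alpha5 collagen IV networks compare. Whole-kidney values do not show which cells made either set of chains. On each array the mean deviation of Col4a1 and Col4a2 from their control means was set beside that of Col4a3, Col4a4 and Col4a5. On the AZIP arrays the alpha1-alpha2 chains stood at 0.25, 0.31 and 0.28, and the alpha3-alpha4-alpha5 chains at 0.25, 0.12 and 0.080. The first AZIP pool was thus equally high in both networks, while the other 2 were higher in alpha1-alpha2. The gap between the networks averaged 0.13 ± 0.11 in AZIP pools, with FVB control pools between -0.035 and 0.053 (SD, n = 3).

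On the PpargΔ/Δ arrays the alpha1-alpha2 chains stood at 0.069, 0.23 and 0.29 and the alpha3-alpha4-alpha5 chains at 0.012, 0.26 and 0.098. The second pool was slightly higher in the alpha3-alpha4-alpha5 chains and the other 2 in the alpha1-alpha2 chains. The gap averaged 0.073 ± 0.11 there (SD, n = 3), with control pools between -0.039 and 0.023. In both lines the gap was of the size of its spread between pools. In each line 1 mutant pool lay below 0, barely so in AZIP at -0.0021, and at -0.029 in PpargΔ/Δ kidneys. The 2 calls in AZIP and 1 in PpargΔ/Δ kidneys for alpha1-alpha2, with 0 for alpha3-alpha4-alpha5, therefore do not show by themselves that the networks responded differently. The gap itself was given no test, because the members were chosen with results known.

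**Figure D3:**
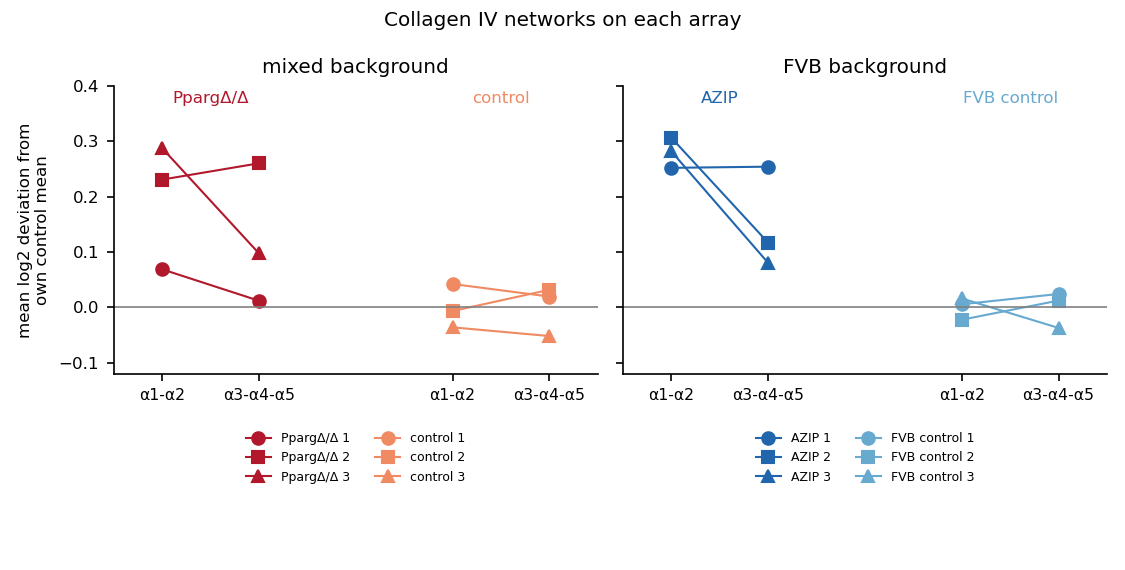
Mean log2 deviation from the own control mean (vertical axis) of the alpha1-alpha2 chains and the alpha3-alpha4-alpha5 chains, with a line for each array of the PpargΔ/Δ and control groups (left) and the AZIP and FVB control groups (right). The first AZIP pool is flat at 0.25, and the second PpargΔ/Δ pool is the only mutant pool whose line goes visibly upwards, to 0.26.

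No member passed the test of a difference between the effects in the 2 lines, with 0 of 10 called against 0.0201% of all genes and 0 of 10 at an unadjusted p under 0.05, against 5.82%. The PpargΔ/Δ effect minus the AZIP effect lay between -0.14 for Col4a1 (95% interval -0.30 to 0.028, limma adjusted p = 0.877) and -0.0036 for Col4a3 (-0.27 to 0.27, limma adjusted p = 0.999). The intervals leave room for differences as large as the effects themselves, so the lines are not shown to act alike.

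Between the control groups, which differ in strain and perhaps in batch, 0 of 10 genes passed, against 7.22% of all genes. By limma 2 were at an unadjusted p under 0.05, against 19.7% of all genes. Col4a3 was lower in FVB control than in mixed control kidneys, at 9.76 ± 0.034 against 9.99 ± 0.039 (SD, n = 3 each, limma adjusted p = 0.159). Col4a4 was higher, at 9.73 ± 0.078 against 9.55 ± 0.011 (limma adjusted p = 0.176). The groups did not overlap for either gene, in opposite directions although the 2 genes are neighbours, and separation in either direction was seen in 28.5% of all genes. Strain and any batch between the strains cannot be told apart here, and a sequence difference under a probe was not tested. The other 8 genes overlapped between FVB control and mixed control arrays.

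Some pairs of members varied together from pool to pool. After each array's group mean was subtracted, Col4a1 and Col4a2 correlated at Pearson r = 0.916 (Spearman 0.839) and Col4a3 and Col4a4 at r = 0.914 (Spearman 0.839) over the 12 arrays, the highest of 45 pairs of members. Among 19937 other genes, Col4a2 ranked 9 in likeness to Col4a1, and Col4a4 ranked 19 in likeness to Col4a3. Both are head-to-head pairs whose records overlap at their starts. Col4a5 and Col4a6, the third pair, were at r = 0.707 (Spearman 0.657), and Col4a6 ranked 500 for Col4a5. Without the 2 arrays farthest from the median of the first gene r was 0.671 for Col4a1 with Col4a2, 0.822 for Col4a3 with Col4a4 and 0.534 for Col4a5 with Col4a6. The first pair thus leaned more on 2 arrays.

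Between the networks the values spread widely. Col4a1 was at r = 0.273 with Col4a3, 0.134 with Col4a4 and 0.639 with Col4a5. Col4a2 was at 0.151 with Col4a3, 0.026 with Col4a4 and 0.519 with Col4a5. Within its own network Col4a5 was at 0.439 with Col4a3 and 0.197 with Col4a4, lower than with Col4a1 and Col4a2. For pairs with a laminin or nidogen gene, Col4a2 and Lamc1 were at 0.85 and Lamc1 and Nid1 at 0.776. Col4a4 and Lamc1 were at -0.352, the lowest of the pairs. The median over the 45 pairs was 0.361, with 40 pairs above 0. Such a value was common among all genes. Col4a4 and Lamb2 were at 0.361, and Lamb2 ranked only 4223 among 19937 other genes in likeness to Col4a4. The 12 points share 4 group means that were subtracted and the composition of each pool, so these values are descriptions without a test.

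**Figure D4:**
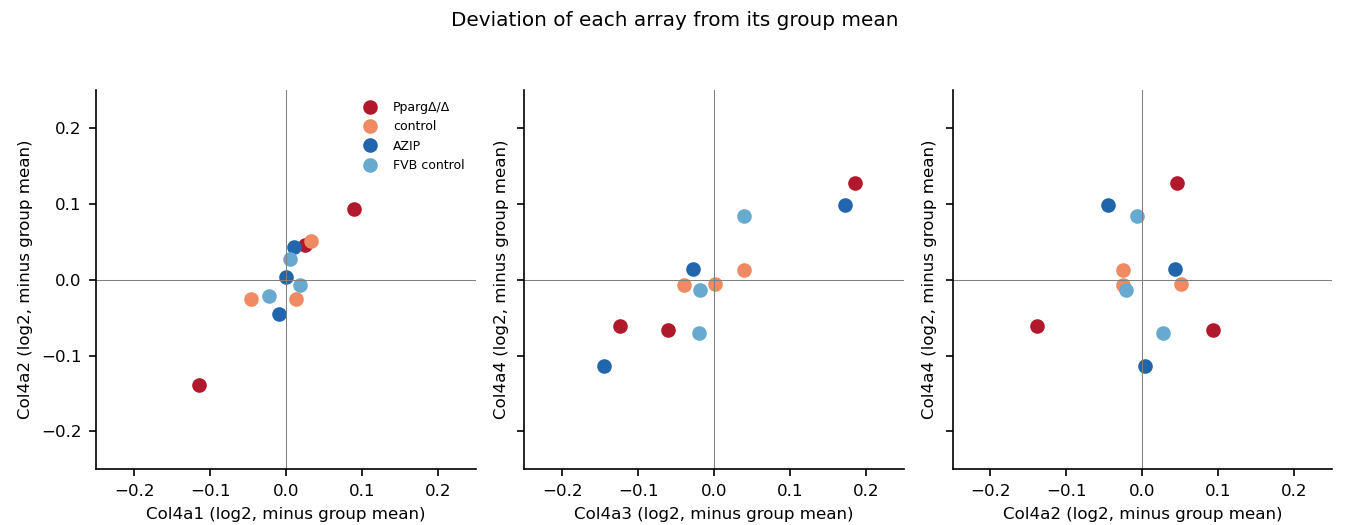
Log2 deviation of each of the 12 arrays from its group mean, for Col4a2 against Col4a1, Col4a4 against Col4a3 and Col4a4 against Col4a2, with PpargΔ/Δ, control, AZIP and FVB control arrays coloured. The first 2 panels follow a line (r = 0.916 and 0.914) and the third does not (r = 0.026).

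Genes outside the set with the most similar pattern were found by Pearson r over the 12 arrays after the mean of each strain was subtracted. For Col4a1 they were Wdr26 (r = 0.974), Sparcl1, a matricellular protein of vessels (0.972), and Svil, an actin-binding protein (0.964). For Lamc1 they were Bmpr2, a receptor of bone morphogenetic proteins (0.974), elastin, Eln (0.972), and the pericyte gene Rgs5 (0.969). For Col4a3 they were Plag1 (0.936), Trir (0.931) and Grin2b (0.922). These values include the shift between mutants and controls.

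Of 28 other listed basement membrane genes 27 had a probe set used here. The fitted difference was above 0 for 23 of them in PpargΔ/Δ and 24 in AZIP kidneys. Lamc3, Tinag and Ntn4, named after their values were seen, lay below 0 in both lines (-0.15, -0.18 and -0.081 in PpargΔ/Δ, -0.064, -0.17 and -0.099 in AZIP kidneys) and were not called. Smoc1, not called either, was at -0.18 in PpargΔ/Δ and 0.12 in AZIP kidneys. In PpargΔ/Δ kidneys 7 rose and 0 fell (median 0.21) and in AZIP kidneys 5 rose and 0 fell (median 0.21), against 2.67% and 1.3% of all genes called higher. Hmcn1, the long matrix protein hemicentin-1, rose by 0.94 ± 0.13 in PpargΔ/Δ and 0.77 ± 0.13 in AZIP kidneys (limma adjusted p = 0.00346 and 0.0159). Tinagl1, a matricellular protein of basement membranes, rose by 0.51 ± 0.063 in PpargΔ/Δ and 0.39 ± 0.063 in AZIP kidneys (limma adjusted p = 0.00184 and 0.0128). Smoc2, a calcium-binding matrix protein, rose by 0.55 ± 0.10 in PpargΔ/Δ and 0.58 ± 0.10 in AZIP kidneys (limma adjusted p = 0.014 and 0.0195).

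The laminin chain Lama3, of the laminin under stratified and ductal epithelium, rose by 0.61 ± 0.069 in PpargΔ/Δ kidneys (limma adjusted p = 0.00125) and was at 0.13 ± 0.069 in AZIP kidneys (limma adjusted p = 0.385). Its signal differed between the strains. Lama3 averaged 9.59 in PpargΔ/Δ and 8.99 in control kidneys, but 7.65 in AZIP and 7.52 in FVB control kidneys. The FVB strain values were under the median of 7.74 over all genes. The cause of this strain difference was not tested. Frem1, of the Fraser complex that holds embryonic epithelium to its matrix, rose by 0.53 ± 0.11 in AZIP kidneys (limma adjusted p = 0.036) and by 0.45 ± 0.11 in PpargΔ/Δ kidneys (limma adjusted p = 0.043, lost without any of 8 of the 12 arrays). Hmcn1, Tinagl1 and Lama3 kept the call in PpargΔ/Δ kidneys with each of the 12 arrays left out, and Smoc2 lost it only without control 1. In AZIP kidneys Tinagl1 lost the call without AZIP 2 or FVB control 1, Smoc2 without FVB control 1 or 2, and Hmcn1 without those or AZIP 2 or 3. Frem1 lost it in AZIP kidneys without any of AZIP 2 and 3, the 3 FVB control arrays and control 2. With 1 array left out the list's count ran between 3 and 9 in PpargΔ/Δ and between 0 and 8 in AZIP kidneys.

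Receptors, processing enzymes and proteases were read the same way. Their counts stand beside 2.67% of all genes called higher in PpargΔ/Δ and 1.3% in AZIP kidneys, and 2.62% and 1.13% called lower. In lists of this length 0 or 1 call is near those shares. Of the 16 receptors 12 had a fitted difference above 0 in each line, beside 46.8% of all genes in PpargΔ/Δ and 51.1% in AZIP kidneys. Of 16 receptors of the basement membrane 1 rose in PpargΔ/Δ kidneys, the collagen-binding integrin Itga2 (0.59 ± 0.13, limma adjusted p = 0.0226), and 0 in AZIP kidneys by limma, with medians of 0.12 and 0.10. Itga2 lost the call without PpargΔ/Δ 2 or 3 or any control array (up to 0.0827). The receptor count in PpargΔ/Δ kidneys ran between 0 and 4 with 1 array left out and between 0 and 6 under the other settings. Of 17 measured genes of collagen folding and crosslinking 0 were called in either line by limma, with medians of 0.025 in PpargΔ/Δ and 0.040 in AZIP kidneys. Of 14 measured proteases and inhibitors, Timp1, an inhibitor of metalloproteinases (0.83 ± 0.19, limma adjusted p = 0.03), and the aggrecanase Adamts4 (0.42 ± 0.077, limma adjusted p = 0.0113) rose in PpargΔ/Δ kidneys. Mmp9, a gelatinase that cleaves collagen IV, fell there (-0.41 ± 0.097, limma adjusted p = 0.0331). In AZIP kidneys 0 rose and 1 fell, the brush border protease Mep1b (-0.48 ± 0.082, limma adjusted p = 0.0152). Timp1 lost the call without PpargΔ/Δ 1 or 3 or any control array, Mmp9 without PpargΔ/Δ 1 or 3 or control 1 or 3 (limma adjusted p up to 0.121), Adamts4 without control 1, and Mep1b without AZIP 2 or FVB control 1 or 2. The call of Mmp9 was also lost with the replicate number as a block, with all probe sets in the adjustment and with only the groups compared. The medians of this list were 0.20 in PpargΔ/Δ and 0.096 in AZIP kidneys.

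Of 14 measured interstitial collagen and matrix genes 5 rose and 0 fell in each line, against 2.67% of all genes called higher in PpargΔ/Δ and 1.3% in AZIP kidneys. The medians were 0.26 in PpargΔ/Δ and 0.30 in AZIP kidneys. Tenascin C, Tnc, rose by 0.71 ± 0.11 in PpargΔ/Δ and by 0.65 ± 0.11 in AZIP kidneys (limma adjusted p = 0.00551 and 0.0152). In PpargΔ/Δ kidneys Col6a1 (0.57 ± 0.12), Col6a2 (0.51 ± 0.091), Col1a1 (0.41 ± 0.090) and Col1a2 (0.36 ± 0.081) rose, with the highest adjusted p at 0.0284 by limma. In AZIP kidneys Col3a1 (0.35 ± 0.071), Col1a2 (0.37 ± 0.081), Col6a3 (0.30 ± 0.066) and Col6a2 (0.39 ± 0.091) rose, with the highest adjusted p at 0.046 by limma. Of these only Tnc in PpargΔ/Δ kidneys kept the call with each of the 12 arrays left out. In PpargΔ/Δ kidneys Col6a2 lost it without control 1, Col6a1 without PpargΔ/Δ 2 or 3 or control 1 or 2, and Col1a1 without PpargΔ/Δ 3 or any control array. Col1a2 lost it there without PpargΔ/Δ 2 or 3 or any control array. In AZIP kidneys Tnc lost it without AZIP 2 or FVB control 1, and Col3a1 without AZIP 2 or any FVB control array. Col1a2, Col6a2 and Col6a3 lost it in AZIP kidneys without AZIP 2 or 3, any FVB control array or some arrays of the mixed strain. The median of the 10 basement membrane members was smaller, at 0.16 in PpargΔ/Δ and 0.23 in AZIP kidneys. With 1 array left out the count that rose ran between 1 and 6 in PpargΔ/Δ and between 0 and 7 in AZIP kidneys.

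**Figure D5:**
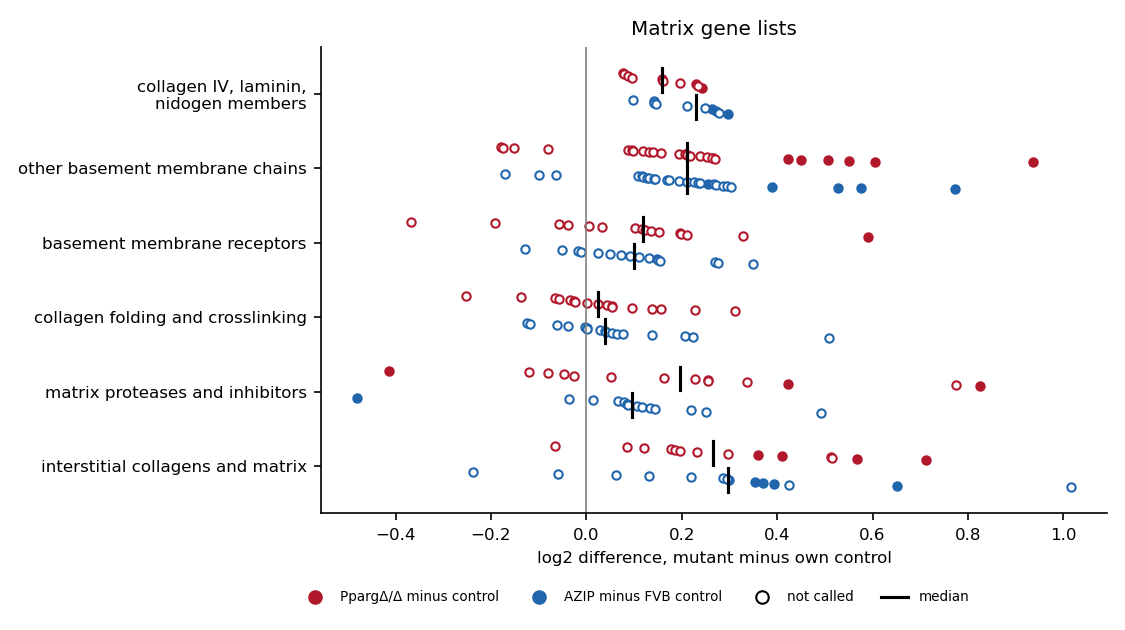
Log2 difference from the own control (horizontal axis) of every measured gene in 6 sets, for PpargΔ/Δ minus control and AZIP minus FVB control; filled points passed an adjusted p under 0.05 and black bars are medians. The members lie in a narrow band above 0, between 0.077 and 0.30, while other matrix genes reach further to both sides.

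Cell type markers were read beside these changes, as the mean log2 value of each list per array. Podocyte markers, with 9 of 12 listed genes measured, lay at 9.205 to 9.298 in PpargΔ/Δ and 9.138 to 9.197 in control kidneys. They lay at 9.29 to 9.39 in AZIP and 9.25 to 9.27 in FVB control kidneys. The mean of this list was thus higher on every mutant array than on every control array of its strain, by a narrow margin. By limma 2 of the 9 rose in each line, Kirrel and Wt1, while the slit diaphragm gene Nphs1 was at 0.13 in PpargΔ/Δ and 0.093 in AZIP kidneys (limma adjusted p = 0.16 and 0.385). In each line 6 of the 9 had a difference above 0, while Ptpro (-0.18 in PpargΔ/Δ, -0.23 in AZIP), Tcf21 (-0.16, -0.074) and Synpo (-0.085, -0.018) lay below 0 in both and were not called. Of 11 endothelial markers 0 were called in either line by limma, with ranges of 10.26 to 10.39 in PpargΔ/Δ and 10.22 to 10.34 in control kidneys, and of 10.30 to 10.43 in AZIP and 10.30 to 10.33 in FVB control kidneys. Of 8 mesangial and pericyte markers 1, Rgs5, rose in each line, by 0.43 in PpargΔ/Δ and 0.39 in AZIP kidneys. The list's medians were 0.027 and 0.073, with levels of 8.77 to 8.90 in PpargΔ/Δ and 8.76 to 8.83 in control kidneys, and of 8.89 to 8.97 in AZIP and 8.83 to 8.90 in FVB control kidneys. Itga8 was at -0.37 and Des at -0.30 in PpargΔ/Δ kidneys, neither called (limma adjusted p = 0.173 for both). Without 1 array Kirrel stayed called in both lines, Wt1 lost the call in PpargΔ/Δ kidneys without control 1 or 2 and in AZIP kidneys without AZIP 2 or 3 or any FVB control array, and Rgs5 lost it in AZIP kidneys without AZIP 2 or 3 or FVB control 1 or 2.

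Smooth muscle markers were at 9.23 to 9.40 in PpargΔ/Δ and 8.80 to 8.92 in control kidneys, with 4 of 7 higher, and at 9.06 to 9.30 in AZIP and 8.86 to 8.96 in FVB control kidneys, with 2 of 7 higher. All marker counts stand beside 2.67% of all genes called higher in PpargΔ/Δ and 1.3% in AZIP kidneys. Acta2, Tagln and Cnn1 kept the call in PpargΔ/Δ kidneys with each array left out, and Tpm2 lost it without PpargΔ/Δ 2 or 3 or any control array. In AZIP kidneys Acta2 lost it without AZIP 3, any FVB control array or control 2 or 3, and Tagln without those or AZIP 2. Fibroblast markers, which include Col1a1, Col1a2 and Col3a1 of the interstitial list, had 2 of 7 higher in each line. They lay at 9.20 to 9.25 in PpargΔ/Δ and 9.01 to 9.02 in control kidneys, and at 9.08 to 9.46 in AZIP and 9.10 to 9.15 in FVB control kidneys. The mean of the proximal tubule markers was lower on every mutant array than on every control array of its strain. It lay at 12.25 to 12.35 in PpargΔ/Δ and 12.42 to 12.53 in control kidneys, and at 12.38 to 12.51 in AZIP and 12.57 to 12.62 in FVB control kidneys. By limma 0 of the 8 were called in either line. The median differences were -0.12 in PpargΔ/Δ and -0.13 in AZIP kidneys. In PpargΔ/Δ kidneys they ran from -0.57 for Slc22a6 to 0.10 for Slc5a12, the 1 marker above 0. In AZIP kidneys 0 were above 0. Thick limb, distal and collecting duct markers had 3 of 8 higher in PpargΔ/Δ kidneys and 0 called in AZIP kidneys. Of the 3, Aqp2 lost the call without PpargΔ/Δ 2 or 3 or control 1 or 3, Aqp3 without PpargΔ/Δ 2 or 3 or any control array, and Scnn1g (limma adjusted p = 0.0499) with 10 of the 12 arrays left out in turn and under 5 other settings. Urothelial markers had 2 higher and 1 lower of 7 in PpargΔ/Δ kidneys, kept with each array left out, and 0 called in AZIP kidneys. The part of these cell types in the changes of the basement membrane genes was not tested.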

How the data were processed

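Whole-kidney RNA was measured on 12 Affymetrix arrays, and the deposited values are log2 probe set summaries. Per the submitters' processing notes, RMA was run in Affymetrix Expression Console, with version and settings not given in the sources used here. Scanner files were not used here. The number of arrays limits the precision; the median SE of a difference was 0.0698 on the log2 scale.

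Of 35556 probe sets 21789 had 1 gene symbol, 1621 several and 12146 none in the platform annotation. Symbols were updated by Entrez number through a RefSeq gene table (GRCm38.p6) for 21698 of them, and where a gene had several probe sets the one with the highest mean was kept, which left 19938 genes. Group means of all 12 arrays were fitted in R 4.3.3 with limma 3.58.1, on 8 residual and 3.71 prior degrees of freedom, with Benjamini-Hochberg adjustment over all genes. The fit was tested on simulated data with changes added to the PpargΔ/Δ arrays, 50 genes per size. It called 28% of changes of 0.25 on the log2 scale, 70% of 0.5, 98% of 0.75 and 96% of 1. Among 19738 unchanged genes 8 were called. A member that was not called is therefore not shown to be unchanged.

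The members and the gene lists were chosen with earlier results of these data known. Named genes were all members, up to 4 called genes with the smallest p per matrix list and line, and the 3 genes most like Col4a1, Col4a3 and Lamc1. Marker genes named in the text were chosen after their values were seen. Alternatives covered normalization, filters, probe sets, samples fitted, variance model, block, threshold and each array left out. Upstream sequences are from RefSeq, build GRCm38.p6, without bases inside a gene record.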

Additional observations from a re-analysis of the deposited data

How the results depend on the processing

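All 20 differences of the members kept their direction over the 458 values that the alternatives gave, and the calls moved more. In 45 of these values a called difference lost the threshold and in 16 an uncalled one passed it. Of the PpargΔ/Δ comparison's 2 called members, 1 (Lamc1) remained after quantile normalization again, with arrays shifted to the same median and with the replicate number as a block. The count was 0 with all probe sets in the adjustment and with only the groups compared, and 4 with array weights or among genes over percentile 50. Of the AZIP comparison's 3 called members, 1 (Col4a1) remained with all probe sets in the adjustment and with only the groups compared. The replicate block gave 4 in AZIP, with Nid1 as the addition. The labels do not say whether the numbers pair the arrays. Deviations of same-numbered arrays correlated at 0.184, 0.179 and 0.009 in the PpargΔ/Δ comparison and at -0.036, -0.103 and -0.01 in the AZIP comparison. Arrays with unlike numbers correlated between -0.26 and 0.147 in the PpargΔ/Δ comparison and between -0.108 and 0.154 in the AZIP comparison. With 3 arrays per group these values cannot decide whether arrays were paired. Between FVB control and mixed control kidneys 1 member, Col4a3, was called with only the groups compared, against 0. With 1 array left out the counts ran between 0 and 4 in PpargΔ/Δ and between 0 and 4 in AZIP kidneys. The gap between the alpha1-alpha2 and alpha3-alpha4-alpha5 networks ran between 0.014 and 0.12 in PpargΔ/Δ and between 0.094 and 0.20 in AZIP kidneys. The cause of these shifts was not tested.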
